A study of Homo sapiens with 6 samples.

Results

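The baseline transcriptome of C4-2 prostate cancer cells was described from the 3 vector libraries, which are 3 of the 6 RNA-seq libraries of the series. They were chosen by their titles alone, and no value from the other 3 libraries, of CDK12 knockout cells, entered any result. C4-2 is an established human cell line, derived from LNCaP cells that were passaged as tumours in castrated mice, and is used as a model of castration-resistant prostate cancer. The study made the vector and knockout lines with CRISPR-Cas9 to ask how loss of CDK12, a kinase that phosphorylates RNA polymerase II, changes these cells. The vector cells carried the genotype label WT, received no treatment and grew in RPMI medium with serum. The labels do not say what the vector holds or whether the line is 1 clone. They also do not say that the 3 libraries came from separate cultures, so the spread given here may be technical.

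Secretory luminal cells of the prostate depend on androgen, and they carry the forkhead pioneer factor FOXA1 and the homeobox factor HOXB13. The best known androgen-responsive genes are those of the secreted proteases KLK3, which is prostate-specific antigen, and KLK2. Luminal cells carry the simple-epithelium keratins KRT8 and KRT18. Basal cells of the same gland carry KRT5, KRT14 and the transcription factor TP63, and neuroendocrine cells carry chromogranin A and synaptophysin.

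The sequence upstream of 5 genes, picked with their levels known, shows 2 features. KLK3 and KLK2 are neighbouring genes on chromosome 19 and were the kallikreins with the highest levels. Their 250 bases upstream of the start (RefSeq, GRCh38.p14) are printed because they share 3 stretches of at least 12 identical letters, given in capitals. KLK3 lies on the plus strand with its window at chr19:50854665-50854914, and KLK2 on the plus strand with its window at chr19:50873189-50873438.
KLK3: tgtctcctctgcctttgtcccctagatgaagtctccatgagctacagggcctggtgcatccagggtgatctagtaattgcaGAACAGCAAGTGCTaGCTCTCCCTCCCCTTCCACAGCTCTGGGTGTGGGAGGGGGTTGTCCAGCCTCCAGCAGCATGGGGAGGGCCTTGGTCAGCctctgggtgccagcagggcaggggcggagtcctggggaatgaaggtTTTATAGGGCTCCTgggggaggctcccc
KLK2: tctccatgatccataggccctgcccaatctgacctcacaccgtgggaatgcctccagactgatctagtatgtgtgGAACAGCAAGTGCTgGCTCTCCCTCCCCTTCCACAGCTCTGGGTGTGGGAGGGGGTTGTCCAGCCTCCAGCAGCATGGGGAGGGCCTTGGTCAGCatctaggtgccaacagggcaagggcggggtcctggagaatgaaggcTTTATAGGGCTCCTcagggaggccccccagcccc
The shared stretches were 14, 80 and 14 letters long and covered 108 of the 250 bases, or 43.2%. The first, GAACAGCAAGTGCT, began 169 bases before the KLK3 start and 175 bases before the KLK2 start. Each stretch was found in the windows of 2 of the 27305 genes searched on both strands (0.00733%), which are these 2 genes.

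The windows of FOXA1, a factor with a high level, and of GSTP1 and CD44, a pair of genes with almost no reads, are printed with every CG in capitals. GSTP1 encodes a glutathione transferase whose CpG-rich promoter is often methylated in prostate cancer, and CD44 encodes a hyaluronan receptor that basal cells carry. FOXA1 is on the minus strand (chr14:37595250-37595499), GSTP1 on the plus strand (chr11:67583562-67583811) and CD44 on the plus strand (chr11:35138921-35139170).
FOXA1: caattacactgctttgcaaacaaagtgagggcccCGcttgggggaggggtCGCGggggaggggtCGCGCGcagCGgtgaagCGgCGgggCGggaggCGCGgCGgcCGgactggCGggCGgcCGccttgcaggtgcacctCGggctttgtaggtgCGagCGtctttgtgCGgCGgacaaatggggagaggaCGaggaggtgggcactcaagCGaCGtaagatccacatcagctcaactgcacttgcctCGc
GSTP1: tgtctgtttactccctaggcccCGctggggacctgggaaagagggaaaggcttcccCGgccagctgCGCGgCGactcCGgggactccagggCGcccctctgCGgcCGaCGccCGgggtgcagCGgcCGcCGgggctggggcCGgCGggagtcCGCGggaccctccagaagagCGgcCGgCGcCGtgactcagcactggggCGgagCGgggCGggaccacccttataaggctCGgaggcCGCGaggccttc
CD44: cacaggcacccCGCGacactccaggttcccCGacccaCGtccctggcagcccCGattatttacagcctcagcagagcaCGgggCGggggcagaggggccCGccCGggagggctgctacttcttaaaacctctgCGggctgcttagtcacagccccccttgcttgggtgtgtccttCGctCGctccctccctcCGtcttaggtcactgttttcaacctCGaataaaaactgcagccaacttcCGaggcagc
The 250 bases held 26 CG in FOXA1, 28 in GSTP1 and 15 in CD44, against 1 in KLK3 and 2 in KLK2. Over 35116 such windows the median was 11 CG, the 5th and 95th percentiles were 0 and 35, and 93.9% held at least 1. A high number of CG thus stood upstream of a gene with a high level and of a gene with almost no reads alike, and KLK3, the highest of the 5, had the fewest. The 5 genes were picked with their levels known, so no relation between CG number and level can be drawn from them. Methylation was not measured in these libraries.

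The libraries had 24660798 to 25879375 reads. Between 16617644 and 18178467 of them fell on a single gene. Levels are given as CPM, a gene's counts divided by the library's gene counts and multiplied by 1e6, after scaling the libraries to each other. Levels of different genes are compared as TPM, which also divides by the length of a gene's exons. A place by CPM, where one is given, orders genes by their counts and favours long ones. Values are means ± SD over the 3 libraries (n = 3). Mitochondrial genes took 7.80 ± 0.934% of the gene counts. A further 11.3 ± 0.255% of all reads fell on more than 1 gene and were counted to none. The libraries' log2 CPM values correlated pairwise with r from 0.991 to 0.993 across 13980 genes, which are not independent replicates. Counts differed between each pair of libraries by 4.22 to 10.2 times the variance that counting noise gives (chi-square per degree of freedom), so no pair was a single library deposited more than once. The knockout target itself, CDK12, stood at 64.4, 51.1 and 61.1 CPM in the vector libraries (58.9 ± 6.92 CPM).

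Of 19836 nuclear protein-coding genes, 11569 (58.3%) were expressed, meaning a mean of at least 1 CPM. The numbers of expressed members given for the lists below are to be read beside this 58.3%. By class, 78 genes reached 1000 CPM or more, 2003 lay between 100 and 1000, 6580 between 10 and 100, and 2908 between 1 and 10. Another 3132 (15.8%) had at least 3 counts but stayed under 1 CPM, and are named trace here. The remaining 5135 (25.9%) were absent by the rule of 0 to 2 counts over the 3 libraries, and 4017 of these had none. With 52045866 gene counts in all, a count of 0 allows a level of up to 0.0576 CPM (3 counts), and this limit covers counting error only. Within a class the median coefficient of variation between libraries was 5.73% at 1000 CPM or more, 7.36% between 10 and 100 CPM and 62.9% for trace genes, so single values under 1 CPM carry little precision.

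The genes of translation led the transcriptome by level per length. RPS2, a protein of the small ribosomal subunit, came first with 6389 ± 138 TPM, followed by the elongation factors EEF2 (5824 ± 249 TPM) and EEF1A1 (5506 ± 195 TPM). The ribosomal proteins RPL13A (4879), RPL8 (4540.0), RPL7A (4441), RPS18 (4086) and RPS12 (3659 TPM) came next. KLK3 was in place 9 with 3600.0 ± 256 TPM, the only tissue-restricted gene among the first 12. HSP90AB1 (3243 TPM), a chaperone that holds steroid receptors in a state able to bind hormone, RPL19 (3171 TPM) and RPLP0 (3168 TPM) completed the 12. By CPM, which favours long genes, KLK3 was in place 3. Reads shared between genes are left out of both orders. GAPDH, outside the first 12, had far more reads in the authors' stranded counts, given below, so its place may be too low. The 100 genes with the most counts held 25.6 ± 1.31% of gene counts, or 20.9 ± 0.654% where only nuclear protein-coding genes were ranked, and 725 genes held 50%.

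**Figure D1:**
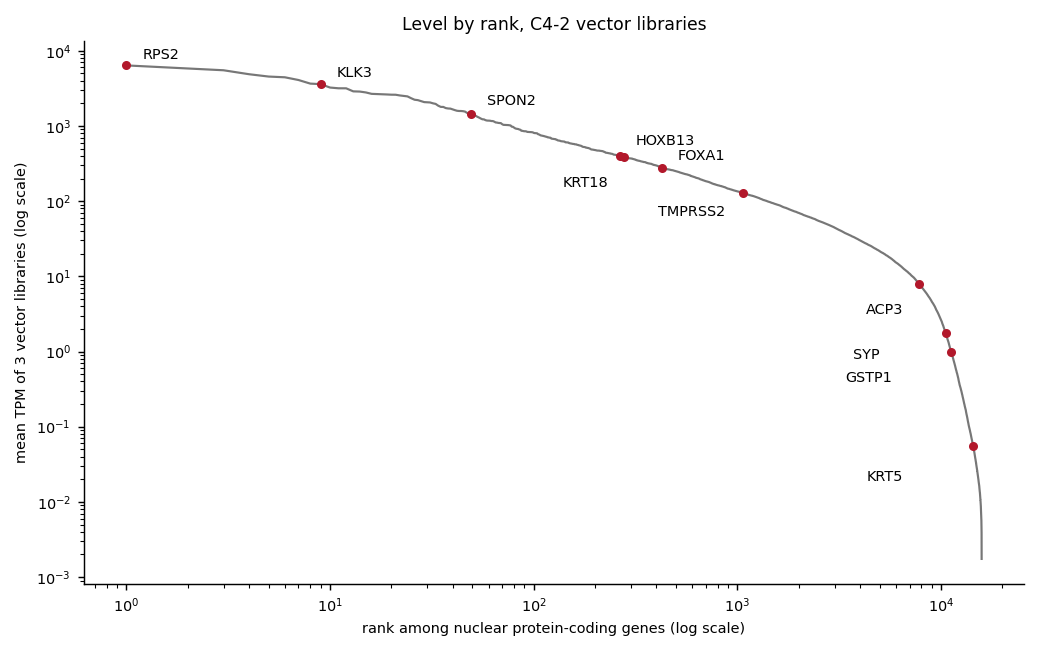
Mean level per length (TPM, log axis) of each nuclear protein-coding gene of the C4-2 vector line against its rank, with 11 genes marked. RPS2 and KLK3 stand at the left end, the luminal factors HOXB13 and FOXA1 at ranks 264 and 426, and GSTP1, SYP and KRT5 at or under 2 TPM.

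Whole machineries filled much of the rest. The 88 genes for cytosolic ribosomal proteins, of which 84 were expressed, took 10.2 ± 0.297% of gene counts. Among the 40 chaperone genes, 35 were expressed, led after HSP90AB1 by HSPA8 (2054 TPM), HSPA5 (1701 TPM) and PPIA (1394 TPM). Of the 76 nuclear genes for the respiratory chain, 71 were expressed (median 96.3 TPM), and of the 78 mitochondrial ribosomal proteins, 76 (median 88.3 TPM). These medians compare with 2.78 TPM over all nuclear protein-coding genes. On the mitochondrial genome MT-CO2 (35520.0 ± 2620.0 TPM), MT-RNR2 (32090.0 ± 4110.0 TPM) and MT-CO1 (29810.0 ± 2269 TPM) stood highest. All 37 mitochondrial genes together took 22.5% of TPM. Among noncoding genes, the most counts fell on the mitochondrial ribosomal RNAs MT-RNR2 (16720.0 ± 3061 CPM) and MT-RNR1 (3226 ± 654 CPM). RN7SL1, the RNA of the signal recognition particle, followed with 1303, 2024 and 2072 CPM, and its first library lay below the other 2. NEAT1, the scaffold RNA of paraspeckles, had 732 ± 79.95 CPM, the pseudogene RPS2P5 597 ± 15.3, and the snoRNA host gene GAS5 309 ± 14.99. DANCR had 303 ± 10.7 CPM. RPS2P5 is a near copy of RPS2, so the split of reads between them is uncertain. Reads shared between genes are left out of this order too. MALAT1, given below, had far more reads in the authors' stranded counts, so its place may be too low.

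All 12 prostate luminal markers were expressed, at a median of 331 TPM, and their summed level was 10527 to 10815 CPM in the 3 libraries. KLK3 (ENSG00000142515.16; GRCh38 chromosome 19, 50854915 to 50860764) had 102151, 90959 and 95345 counts and 5596, 5426 and 5599 CPM. HOXB13 (ENSG00000159184.8; chromosome 17, 48724763 to 48729178) had 456, 478 and 439 CPM, and FOXA1 (ENSG00000129514.8; chromosome 14, 37589984 to 37596059) had 398, 341 and 365 CPM. These 3 differed between libraries by a small part of their level. KRT18 (ENSG00000111057.11; chromosome 12, 52948871 to 52952901) had 394, 476 and 360.2 CPM, with the second library highest, and its SD of 59.8 CPM was the widest of the 4 relative to its mean of 410.4.

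Per length, KLK3 led the markers with 3600.0 ± 256 TPM. FOLH1, which is prostate-specific membrane antigen, had 583 ± 53.6 TPM, and the transporter SLC45A3, also known as prostein, had 570.1 ± 63.1 TPM. The libraries' ranges of FOLH1 and SLC45A3 overlapped, so their order was not resolved. HOXB13 (397 ± 7.76 TPM) and KRT18 (382 ± 34.4 TPM) overlapped in the same way. KLK2 (279.7 ± 21.3 TPM), FOXA1 (279 ± 33.6 TPM) and KRT8 (267 ± 3.45 TPM) formed another group, in which KLK2 and FOXA1 overlapped and so did FOXA1 and KRT8. TMPRSS2, a serine protease under androgen control, had 128 ± 15.02 TPM. ACP3, prostatic acid phosphatase, was the lowest at 7.95 ± 0.798 TPM. With the median length of basic transcripts in place of the union of exons, KLK3 rose to 7361 TPM and the order below changed. KRT8 (512 TPM) then stood above FOLH1 (463), KRT18 (413), SLC45A3 (331) and KLK2 (329 TPM). HOXB13 fell to 208 TPM and FOXA1 to 203 TPM, both under KLK2. The order and the groups given above thus hold for the union of exons only.

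Reads that overlap a gene on the other strand are lost from the counts used here. Summing the authors' stranded columns brings them back, but adds the reads of both genes to each. KRT18 had 21322 counts, against 34191 in the 2 summed stranded columns, and KRT8 31802 against 44671. The 2 keratins gained the same number of counts, and whether these were the same reads was not tested. KLK3 (288455 against 288465) lost almost none. The keratin levels are therefore lower bounds by this measure, and their places among the markers may be too low.

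**Figure D2:**
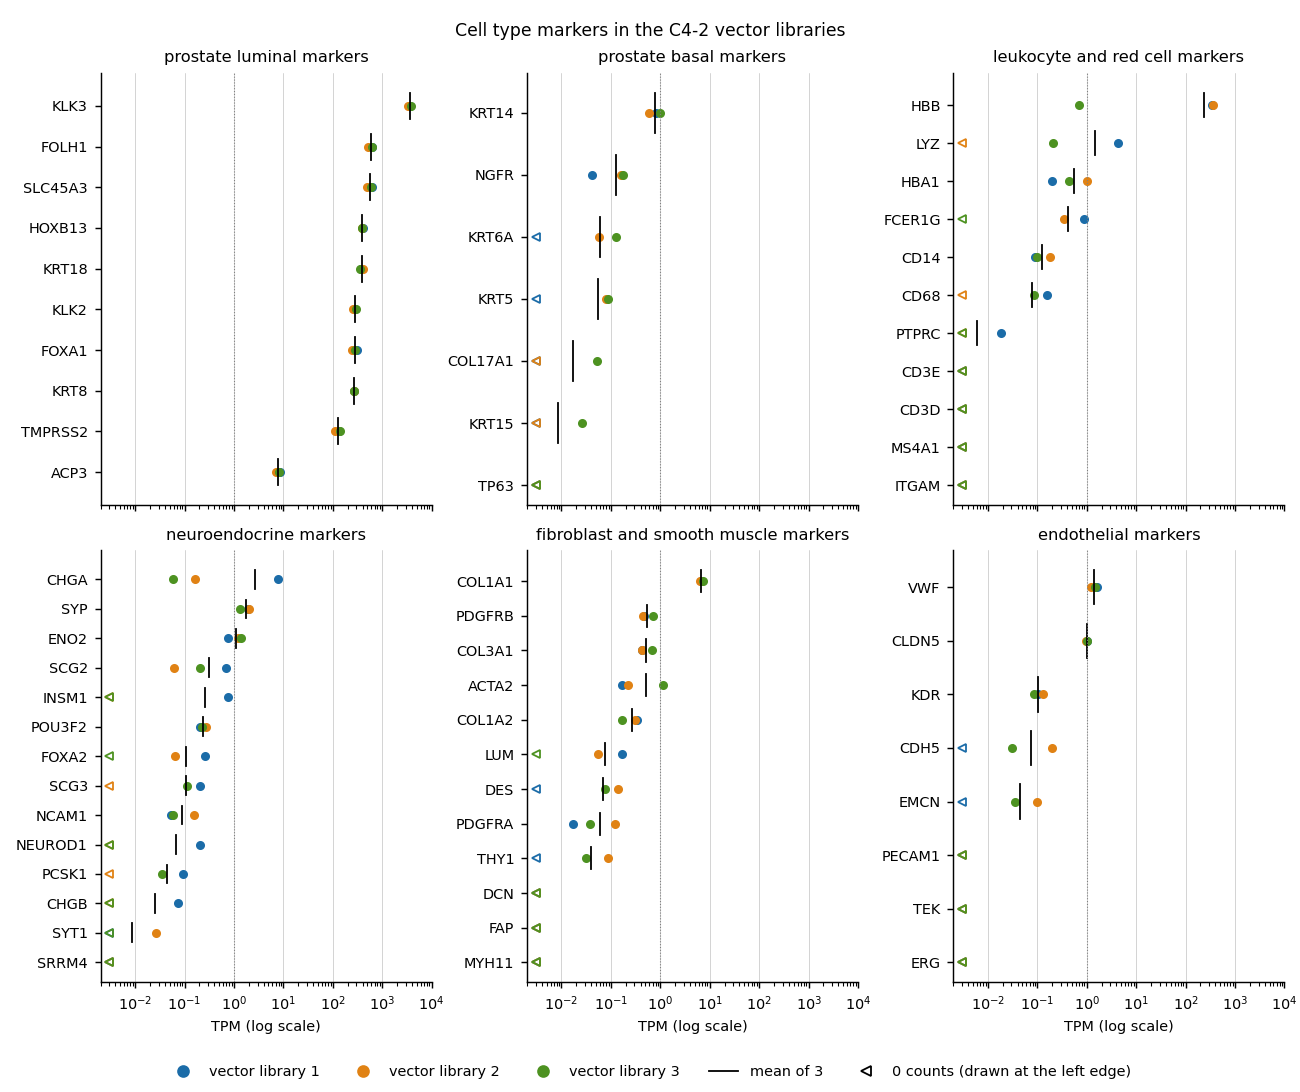
Level per length (TPM, log axis) of cell type markers in each of the 3 vector libraries, in 6 panels by marker list, with the mean as a black bar, a dotted line at 1 TPM and an open triangle at the left edge for 0 counts. The luminal markers drawn lie above 1 TPM in every library, and none of the basal markers drawn does by its mean.

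By their means, markers of other cell types were low or absent, except for COL1A1 and HBB, whose higher levels are given below. In bulk libraries, fewer cells of a type and less RNA per cell cannot be told apart. Of the 8 basal markers 0 were expressed, and their summed level was 0.767 to 1.35 CPM. KRT14 had 31 counts over the 3 libraries, NGFR 9, KRT5 4, KRT6A 3, COL17A1 2, KRT15 1 and TP63 0. Of 15 neuroendocrine markers 3 were expressed, with a summed level of 5.23 to 15.5 CPM. SYP, synaptophysin, had 3.29, 3.64 and 2.23 CPM and ENO2, neuron-specific enolase, had 1.04, 1.85 and 1.88 CPM. CHGA, chromogranin A, was in the low class and had nearly all its reads in the first library, with 143, 3 and 1 counts. INSM1, a factor of neuroendocrine cells, had 13, 0 and 0 counts and NEUROD1 4, 0 and 0, all of them in the same first library. SCG2 had 15 counts, POU3F2 20, NCAM1 20, SCG3 6, FOXA2 5, PCSK1 4, CHGB 2, SYT1 1 and SRRM4 0.

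Markers of fibroblasts and smooth muscle summed to 24.5 to 27.5 CPM, and 3 of 12 were expressed. COL1A1, a chain of type I collagen, made up most of it with 20.9, 22.1 and 22.6 CPM, and the partner chain COL1A2 had 0.995 CPM. PDGFRB (1.29 CPM) and COL3A1 (1.14 CPM) lay just above the threshold, ACTA2 had 25 counts, PDGFRA 10, LUM 4, THY1 4 and DES 3, and DCN, FAP and MYH11 had 0. Of 8 endothelial markers 2 were expressed, VWF (4.92 ± 0.510 CPM) and CLDN5 (1.15 ± 0.0387 CPM). KDR had 12 counts, CDH5 8 and EMCN 4, while PECAM1, TEK and ERG had 0. Among 12 leukocyte and red cell markers only HBB, beta-globin, was expressed, and it was not even across the libraries, with 2709, 2726 and 5 counts. LYZ had 44, 0 and 2 counts, HBA1 8, FCER1G 7, CD14 4, CD68 3 and PTPRC 1, and CD3D, CD3E, ITGAM and MS4A1 had 0. Without the second library 2 of the 12 were expressed, and without the third also 2. CD68 and HBA1 had 449 and 256 in the summed stranded columns.

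Among transcription factors of the luminal lineage, 18 of 22 were expressed at a median of 36.5 TPM. SPDEF, an ETS factor of secretory epithelium, had 307, 319 and 272 CPM and 470.4 ± 24.6 TPM. HOXB13 came after it, and EHF, an epithelial ETS factor, was next with 292 ± 41.6 TPM. GATA2, a zinc-finger factor, had 188 ± 11.9 TPM, whereas GATA3 had 8 counts in all. HNF4A had 0 counts and HNF4G 15, so these factors of the gut and liver lineage were at or under trace level.

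SPDEF and EHF also led the 27 ETS factors, of which 18 were expressed. ELK1 (46.2 ± 3.37 TPM) and the repressor ERF (32.6 ± 1.41 TPM) followed. ERG, which is fused to TMPRSS2 in many prostate tumours, had 0 counts in the 3 libraries, FLI1 0 and SPIB 2. ETV1, a gene that LNCaP cells are known to carry in a rearranged form, had 6 counts. FEV, an ETS factor of serotonergic neurons, had 19.8, 20.6 and 15.03 CPM. ETV1 and FEV were chosen after their values were seen.

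Of 10 factors that drive a mesenchymal state, 3 were expressed. SNAI1 had 7.07 ± 0.879 CPM, TCF4 6.50 ± 0.822 and SNAI2 3.46 ± 0.677. ZEB1, TWIST2 and PRRX1 had 2 counts each and ZEB2 had 3, with ZEB1 at 51 in the summed stranded columns. Of 13 stem and proliferation factors 6 were expressed. Those with the highest levels were MYBL2 (262 ± 13.4 TPM), MYC (183 ± 14.3 TPM), E2F1 (163 ± 6.12 TPM) and FOXM1 (91.6 ± 5.68 TPM). MYCL (5.15 ± 0.291 TPM) and KLF4 (4.15 ± 0.334 TPM) were expressed at lower levels. MYCN, of the same family as MYC, had 3 counts. NANOG had 0 counts, SOX2 4, LIN28B 3, SALL4 10, LIN28A 17 and POU5F1 35.

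Of 48 nuclear receptors, 26 (54.2%) were expressed, close to the 58.3% of all nuclear protein-coding genes. The orphan receptors NR2F6 (201, 232 and 203 CPM; 238 ± 7.40 TPM) and ESRRA (227, 248 and 229 CPM; 233 ± 2.87 TPM) were the highest, and their ranges overlapped. NR1H2, an oxysterol receptor, came next with 61.9 ± 2.00 TPM. Several receptors for steroid hormones were low or absent. NR3C1, the glucocorticoid receptor, had 0 counts, ESR1 3, PGR 4 and ESR2 46, and NR3C2, the mineralocorticoid receptor, had 2.57 ± 0.513 CPM. ESRRB, NR1H4, NR1I2 and HNF4A also had 0 counts and RORB had 1. NR3C1 had 0 in the summed stranded columns too, which bring back reads lost to a gene on the other strand but not on its own.

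All 24 steroid receptor coregulators were expressed, at a median of 20.6 TPM. The chaperones that act on steroid receptors led them: HSP90AB1 had 3243 ± 183 TPM, HSP90AA1 1162 ± 82.1, the co-chaperone PTGES3 416 ± 22.1 and FKBP4 300.0 ± 13.5. The p160 coactivators were far lower, with NCOA1 at 15.3 TPM, NCOA3 at 5.98 and NCOA2 at 5.32. The corepressor NCOR1 (11.5 TPM) lay in the same range. These 4 genes were chosen after their values were seen.

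**Figure D3:**
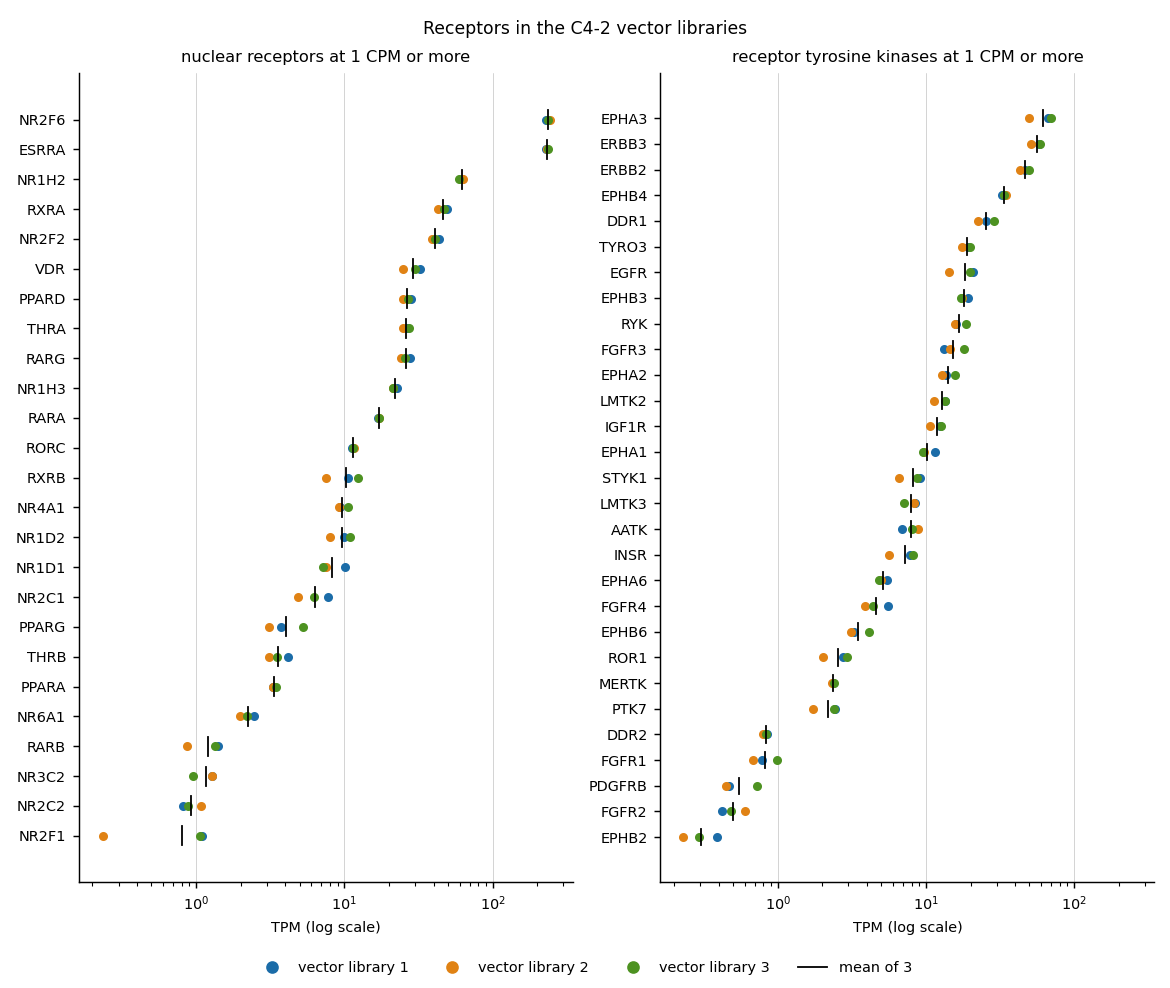
Level per length (TPM, log axis) in each of the 3 vector libraries of expressed nuclear receptors and receptor tyrosine kinases. NR2F6 and ESRRA stand highest among nuclear receptors at 238 and 233 TPM, and EPHA3, ERBB3 and ERBB2 lead the kinases at 62.0, 56.0 and 46.6 TPM.

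Of 58 receptor tyrosine kinases, 29 (50%) were expressed, against 58.3% of all nuclear protein-coding genes, and none passed 100 TPM. EPHA3, an ephrin receptor, had 144, 117 and 149 CPM and 61.96 ± 10.9 TPM. ERBB3 had 169.5, 164 and 170.4 CPM and 55.99 ± 4.18 TPM, and its partner ERBB2 had 158, 158 and 164 CPM and 46.6 ± 3.31 TPM. The TPM ranges of EPHA3 and ERBB3 overlapped. EPHB4 followed with 33.8 ± 1.10 TPM. EGFR had 18.4 ± 3.56 TPM and ERBB4 had 2 counts, so the 4 members of the family spanned the range from high to absent. MET, the receptor of hepatocyte growth factor, had 35 counts (0.676 CPM), and its ligand HGF had 0. NTRK2, NTRK3, FLT3 and INSRR had 1 count each. EGFR and MET were chosen after their values were seen.

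Among receptors and kinases of interferon and cytokine signalling, 20 of 30 were expressed. TYK2 (52.4 ± 3.09 TPM) and STAT3 (49.04 ± 4.71 TPM) were highest, followed by IL6R (39.5 ± 3.98 TPM) and IFNAR1 (29.5 ± 2.02 TPM). JAK1, the kinase that pairs with TYK2 at the interferon and interleukin-6 receptors, had 4.49, 3.88 and 4.05 CPM and 1.98 ± 0.229 TPM, over 10 times lower per length than TYK2 in every library. JAK1 was chosen after its value was seen. IFNAR2, the partner of IFNAR1, had 43 counts, but 379 in the summed stranded columns. IL2RG, IL7R and PRLR had 0 counts.

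In the TGF-beta and BMP family 11 of 14 receptors were expressed, led by the activin receptor ACVR1B (15.7 ± 2.63 TPM), BMPR2 (8.46 ± 1.02 TPM), ACVR1 (6.55 ± 1.31 TPM) and TGFBR1 (5.63 ± 0.693 TPM). TGFBR2, which binds TGF-beta and is needed with TGFBR1, had 2 counts. Of 19 Wnt and Notch receptors 15 were expressed, with LRP5 (54.3 ± 1.31 TPM), NOTCH1 (29.3 ± 3.90 TPM), FZD6 (22.4 ± 3.43 TPM) and FZD1 (18.99 ± 1.70 TPM) in front, while LGR5, FZD10 and NOTCH4 had 1 count each.

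Of 21 death and Toll-like receptors 7 (33.3%) were expressed, against 58.3% of all nuclear protein-coding genes. None of the 7 was a Toll-like receptor, but not every other member passed, and the decoy receptor TNFRSF11B had 0 counts. The TRAIL receptors TNFRSF10B (75.9 ± 6.47 TPM), TNFRSF10A (25.8 ± 1.22 TPM) and the decoy TNFRSF10D (21.6 ± 3.62 TPM) were expressed, as was the TNF receptor TNFRSF1A (50.9 ± 0.810 TPM). All 10 Toll-like receptors stayed under 1 CPM. TLR1, TLR4, TLR8, TLR9 and TLR10 had 0 counts, and TLR5 had the most with 41. Of 35 receptors for hormones, peptides and catecholamines 12 were expressed. LPAR3, a lysophosphatidic acid receptor, had 79.2, 80.1 and 78.3 CPM, the adrenergic receptor ADRA2A 55.8, 56.6 and 50.1, and the protease-activated receptor F2RL1 24.2 ± 1.46 TPM. All 3 alpha-1 adrenergic receptors, ADRA1A, ADRA1B and ADRA1D, had 0 counts, as did ADRB3 and SSTR3. OR51E2, an olfactory-type receptor known from prostate, had 0 counts too. It is the first gene of a run of 19 absent genes on chromosome 11 (4680171 to 5200700), 18 of them olfactory receptors.

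Of 26 integrins 15 (57.7%) were expressed, close to the 58.3% of all nuclear protein-coding genes, and 9 passed at 2 CPM. ITGB1 had 93.95 ± 17.7 TPM, ITGB5 31.8 ± 2.64, ITGAE 14.7 ± 1.71 and ITGAV 14.6 ± 3.08. ITGB3, ITGB6 and ITGAM had 0 counts.

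Secreted products of the gland were uneven. SPON2, a matrix protein, had 2897, 3022 and 2737 CPM and 1443 ± 35.02 TPM, second after KLK3 among 21 secreted products, of which 12 were expressed. KLK2 (279.7 ± 21.3 TPM), GDF15, a stress cytokine of the TGF-beta family (275 ± 17.9 TPM), and AZGP1, zinc-alpha-2-glycoprotein (273 ± 11.8 TPM), had ranges that overlapped. MSMB, the major seminal plasma protein beta-microseminoprotein, had 2.85, 2.92 and 3.46 CPM. NPY, SEMG1 and SEMG2 had 0 counts and SERPINA3 had 2. AZGP1 and MSMB were chosen after their values were seen.

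Of 18 surface antigens 16 were expressed, at a median of 41.7 TPM. FOLH1 led them with 583 ± 53.6 TPM and had 756, 706 and 756 CPM in the 3 libraries. STEAP1, a metalloreductase-family protein, had 234, 217 and 238 CPM and 426 ± 43.2 TPM, STEAP2 had 135 ± 20.99 TPM and TMPRSS2 128 ± 15.02 TPM. Within the same family STEAP4 was at trace level with 7 counts. CEACAM5, an antigen of gut tumours, had 0 counts. DLL3, a Notch ligand known from neuroendocrine tumours and chosen after its value was seen, had 24.6, 32.03 and 25.5 CPM and 31.4 ± 2.90 TPM. It lay above each of the 15 neuroendocrine markers.

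Of 25 androgen-responsive genes 22 were expressed, at a median of 104 TPM against 2.78 over all nuclear protein-coding genes. Below KLK3 and SLC45A3 stood PLPP1, a lipid phosphatase, with 403 ± 17.8 TPM. FKBP5, a co-chaperone and a common readout of the androgen response, had 269, 249 and 251 CPM and 72.8 ± 5.98 TPM. ORM1 (0.657, 1.43 and 0.881 CPM), HERC3 (0.822, 0.298 and 1.18 CPM) and STEAP4 (0.133 CPM) were the 3 below the threshold, and ORM1 passed it in 1 library and HERC3 in 1. These genes were chosen as a known set, and no androgen was added or withdrawn here.

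Enzymes that make and break steroids were mostly low, with 11 of 29 expressed. The highest, HSD17B10 (463 ± 5.15 TPM) and HSD17B4 (60.8 ± 5.44 TPM), also act on fatty acids. HSD11B2, which inactivates cortisol, had 52.8 ± 4.15 TPM, and SRD5A1, a 5-alpha-reductase, had 40.3, 33.9 and 40.1 CPM. The other 5-alpha-reductase SRD5A2 had 0 counts. On the route from cholesterol to androgen, CYP11A1 had 17.04, 14.4 and 17.4 CPM, but CYP17A1 had 1 count, HSD3B1 27, HSD3B2 0, HSD17B3 0 and AKR1C3 4. Of the 17 UGT1A and UGT2 genes, whose enzymes conjugate steroids and other small molecules, 0 passed 1 CPM, and 1 did without the second library. UGT2B28 (50 counts), UGT2B15 (44) and UGT2B17 (35) had the most. These 3 are close copies of each other, so reads that match more than 1 were not counted.

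Genes of mismatch repair were expressed over a wide range. PCNA, the sliding clamp that is also part of replication, had 452 ± 24.7 TPM, POLD1 68.4 ± 3.98, RFC1 34.8 ± 4.65, PMS2 28.8 ± 0.815, EXO1 18.8 ± 3.32 and LIG1 16.2 ± 0.675 TPM. MLH3 had 10.3 ± 1.18 TPM, MSH3 9.80 ± 0.974, PMS1 9.73 ± 0.124 and MSH6 6.51 ± 0.381. MSH6 had 1237 counts against 2257 in the summed stranded columns, so its level is a lower bound.

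All 30 tumour suppressors were expressed too, at a median of 11.5 TPM. The cell cycle inhibitors CDKN1A (93.5 ± 5.81 TPM) and CDKN1B (71.8 ± 6.73 TPM) led, followed by NF2 (66.4 ± 1.38 TPM) and MEN1 (61.01 ± 4.22 TPM). RB1, which restrains entry into S phase, had 12.00 ± 2.04 TPM. CDKN2B (1.04, 1.07 and 1.64 CPM) was the lowest of the 30. RB1 and CDKN2B were chosen after their values were seen. A transcript level says nothing of whether the protein is intact.

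Of 20 genes that are often methylated in prostate cancer, 6 were expressed, with a median of 0.482 TPM against 2.78 over all nuclear protein-coding genes. The number was 10 at a threshold of 0.5 CPM, 4 at 2 CPM and 8 by the summed stranded columns. MGMT (44.6 ± 2.79 TPM), RASSF1 (31.4 ± 4.12 TPM) and APC (3.71 ± 0.306 TPM) passed clearly, and RARB (1.47 CPM), SERPINB5 (1.35 CPM) and HIC1 (2.58 CPM) lay near the threshold. GSTP1 had 9, 11 and 12 counts (0.618 CPM). CD44 had 1 count over the 3 libraries and PTGS2 1, while CAV1 and EDNRB had 2 each. CCND2 had 7 counts, DKK3 9, TIMP3 11, CDH13 14, S100A2 16, RARRES1 22, SFRP1 33, AOX1 33 and GPX3 45. DKK3, HIC1 and CDH13 reached 1015, 1162 and 96 in the summed stranded columns, so reads over these genes were left out of the counts used here. GSTP1 and CD44 had the same number in both.

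Antigen presentation genes fell into high and low groups. The chaperones CALR (2886 ± 63.1 TPM) and PDIA3 (639.9 ± 19.6 TPM), which serve all glycoproteins, and B2M (72.3 ± 7.78 TPM), the light chain of class I molecules, led the 22, of which 15 were expressed. The heavy chains were low: HLA-B had 6.46, 7.52 and 7.81 CPM and HLA-E 5.59, 5.85 and 4.76. HLA-C had 0.931, 14.5 and 36.4 CPM and moved between libraries far more than B2M, at 149.7, 136 and 151 CPM. HLA-G, HLA-DRB1 and TAP2 had 0 counts, the immunoproteasome subunits PSMB8 and PSMB9 had 3 and 8, and CIITA, the class II regulator, had 184 counts against 3338 in the stranded columns. HLA genes are near copies of each other and vary between people, so their split of reads is uncertain. HLA-B, HLA-E, PSMB8, PSMB9 and CIITA were chosen after their values were seen.

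Most genes of cell junctions were expressed. Of 27 cadherin and junction genes 25 were expressed, at a median of 38.5 TPM. The list also holds genes that mesenchymal cells carry, among them CDH2, VIM and FN1, so the 25 are not epithelial genes alone. The level of FN1 is not reported here. The plakoglobin gene JUP had 315 ± 12.3 TPM, the desmosome plaque gene PKP3 223 ± 3.63, the protease inhibitor SPINT1 182 ± 9.33 and its target protease ST14 182 ± 7.90. E-cadherin, CDH1, had 353, 339 and 340.0 CPM. N-cadherin, CDH2, had 4, 12 and 3 counts, and vimentin, VIM, had 5.20, 4.71 and 5.87 CPM, with 274 counts against 864 in the summed stranded columns. CDH1, CDH2 and VIM were chosen after their values were seen. Among 24 claudins 7 were expressed, with CLDN3 at 291 ± 5.09 TPM, CLDN4 at 154 ± 8.18, CLDN7 at 124 ± 1.33 and CLDN12 at 37.5 ± 6.87, while CLDN1 had 0 counts.

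Neural and bone programs were sparse. Of 23 neural and synaptic genes 9 were expressed, led by STMN1 (58.2 ± 1.41 TPM), a microtubule regulator that dividing cells also carry, then STX1A (6.18 ± 0.444 TPM), RIMS1 (5.25 ± 0.960 TPM) and MAP2 (2.58 ± 0.418 TPM). GRIA2 and GRIN2A, which encode channels of neurons, had 0 counts. Of 12 bone matrix genes 3 were expressed: COL1A1 (6.70 ± 0.431 TPM), PHOSPHO1 (3.10 ± 0.890 TPM) and RUNX2 (2.90 ± 0.524 TPM). SPP1, IBSP, ALPL and DMP1 had 0 counts, and so did TNFSF11 and TNFRSF11B, the ligand and decoy receptor that control osteoclasts.

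Among 40 growth factors and their binding proteins, 11 were expressed. IGFBP2, which binds insulin-like growth factors, had 118 ± 3.50 TPM, VEGFB 33.4 ± 1.85, VEGFA 21.4 ± 4.22 and PDGFB 15.2 ± 0.557. The EGF-family ligands AREG, EREG, NRG1 and NRG3 had 0 counts, although EGF itself had 16.6, 11.8 and 17.3 CPM. EGF and TGFB1 were chosen after their values were seen. TGFB1 had 11 counts against 1473 in the summed stranded columns, so reads over it were left out of the counts used here.

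Cell cycle genes were expressed nearly throughout, 30 of 31, at a median of 82.8 TPM. PCNA (452 ± 24.7 TPM), CDC20 (362 ± 21.4 TPM), MCM7 (317 ± 11.3 TPM) and CCNB1 (257 ± 7.81 TPM) led. Cyclin D usage was uneven, with CCND1 at 141 ± 12.5 TPM, CCND3 at 53.01 ± 1.69 and CCND2 at 7 counts. CDK4 had 121 ± 6.54 TPM and CDK6 2.10 ± 0.393. The D cyclins and their kinases were chosen after their values were seen.

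All 22 lipid synthesis genes were expressed, at a median of 98.2 TPM, and they took 0.951% of gene counts. FASN, fatty acid synthase, had 2526, 2595 and 2598 CPM and 828 ± 42.7 TPM. The elongase ELOVL5 had 457 ± 65.9 TPM and the sterol-responsive factor SREBF1 385 ± 5.64. FDFT1, squalene synthase, was even in 2 libraries and low in 1, with 50.4, 4.29 and 59.1 CPM. Of 20 glycolysis genes 18 were expressed. GAPDH had 2141 ± 49.9 TPM, TPI1 1255 ± 29.1, ENO1 1098 ± 23.3 and PKM 586 ± 22.00. LDHA had 222 ± 18.6 TPM against 2.78 ± 0.498 for LDHB, a pair chosen after its values were seen. LDHB shares 33.4% of its exon bases with another gene on its own strand, so its count is a lower bound. GAPDH had 110474 counts against 253784 in the stranded columns.

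Polyamines and zinc are abundant in prostate fluid, and 17 of 23 genes of their handling were expressed. The antizyme OAZ1 had 747 ± 6.70 TPM, spermidine synthase SRM 624 ± 28.5 and ornithine decarboxylase ODC1 568 ± 40.00. The metallothionein MT2A had 381 ± 20.98 TPM, whereas MT1E and MT1M had 0 counts. The zinc exporter SLC30A4, chosen after its value was seen, had 225, 211 and 217 CPM.

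Of 21 long noncoding RNAs 13 were expressed. GAS5 (257 ± 24.6 TPM), SNHG1 (105 ± 17.4 TPM) and NEAT1 (97.1 ± 14.5 TPM) led, then PVT1 (24.97 ± 4.70 TPM). PCGEM1, PCAT14, HOTAIR and MEG3 had 0 counts. PCA3, a prostate cancer RNA used in urine tests, had 7.07, 9.66 and 10.1 CPM, and 463 counts against 2931 in the stranded columns. MALAT1, an abundant nuclear RNA, had 300 counts against 18846. PCA3 and MALAT1 were chosen after their values were seen.

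**Figure D4:**
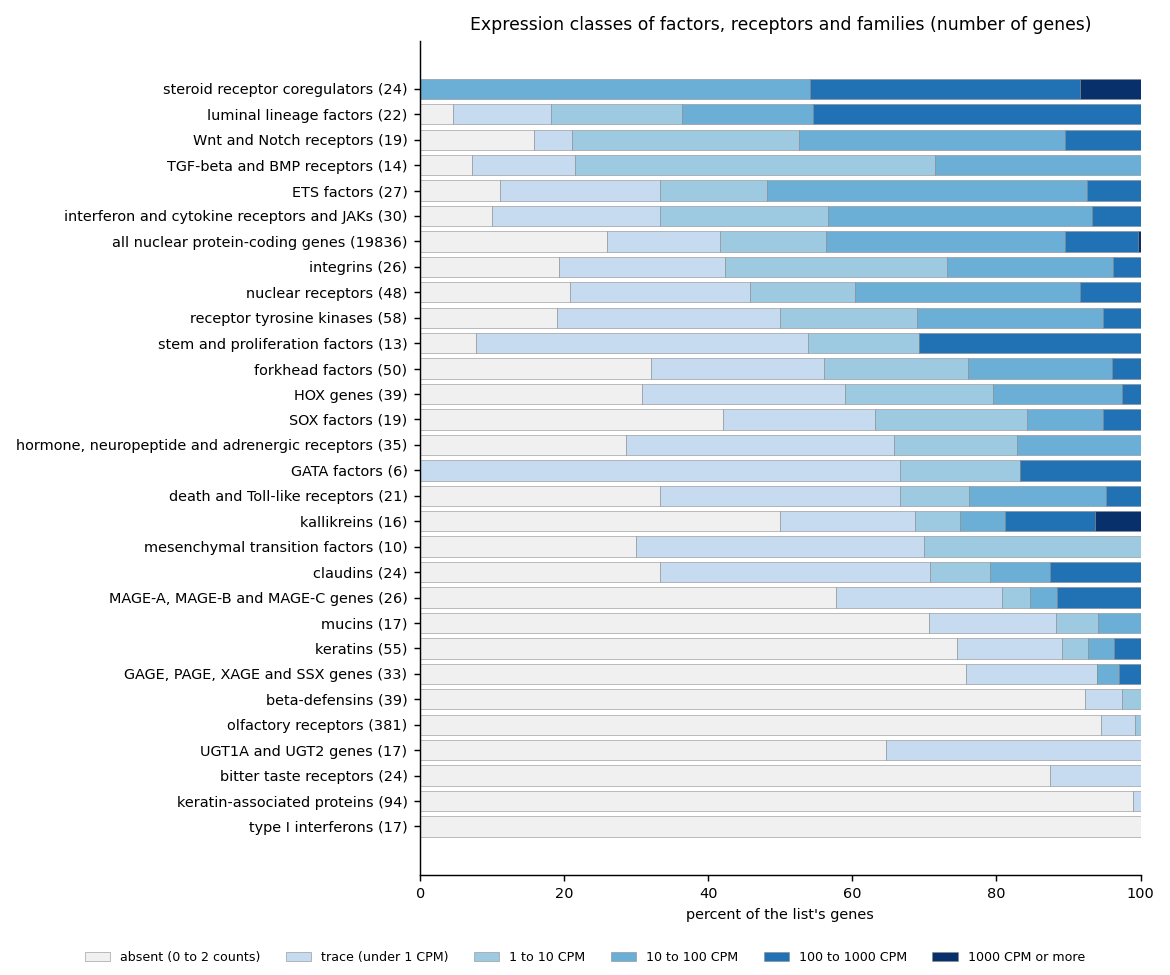
Share of members (percent, stacked bars) in each level class, from absent to 1000 CPM or more, for the lists of factors and receptors and the gene families, with the number of genes in brackets and all nuclear protein-coding genes as the reference bar at 25.9% absent. Steroid receptor coregulators have 0 absent members of 24, while olfactory receptors (360 of 381), keratin-associated proteins (93 of 94) and type I interferons (17 of 17) are absent nearly throughout.

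Within gene families a few members carried nearly all reads. Of 55 keratins 6 were expressed, KRT18 (382 ± 34.4 TPM), KRT8 (267 ± 3.45 TPM), KRT10 (74.2 ± 4.45 TPM) and KRT19 (68.7 ± 7.95 TPM) first, and 41 were absent. Of 16 kallikreins 5 were expressed. KLK3, KLK2, KLK4 (226 ± 3.43 TPM) and KLK15 (30.8 ± 2.92 TPM) lie next to each other, and KLK5, KLK6, KLK7, KLK8 and KLK9 of the same cluster had 0 counts. Of 39 HOX genes 16 were expressed, with HOXB13 (397 ± 7.76 TPM) far above HOXC6 (41.3 ± 3.87 TPM), HOXC9 (29.8 ± 4.41 TPM) and HOXC13 (24.2 ± 3.47 TPM). Genes of the D cluster, among them HOXD1, HOXD10, HOXD11 and HOXD13, had 0 counts. HOXA7 had 0 counts as well, but 64 in the summed stranded columns.

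SOX12 (136 ± 8.44 TPM) and SOX4 (35.6 ± 3.03 TPM) led the 19 SOX factors, of which 7 were expressed, followed by SOX13 (10.3 ± 0.243 TPM) and SOX15 (4.55 ± 1.68 TPM). GATA2 stood alone among 6 GATA factors with 188 ± 11.9 TPM, GATA6 having 3.15 ± 0.140. FOXA1 (279 ± 33.6 TPM), FOXM1 (91.6 ± 5.68 TPM), FOXP4 (38.4 ± 3.66 TPM) and FOXK2 (26.4 ± 0.782 TPM) led the 50 forkhead factors, of which 22 were expressed. Of 17 mucins only MUC5AC (3.51 ± 0.412 TPM) and MUC1 (1.10 ± 0.576 TPM) were expressed.

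Cancer-testis genes, which are silent in most adult tissues outside the testis, showed the same concentration. Of 26 MAGE-A, MAGE-B and MAGE-C genes 5 were expressed and 15 absent. MAGEA3 had 181, 173 and 174 CPM and 297 ± 20.6 TPM, MAGEA1 243 ± 17.9 TPM, MAGEA6 165 ± 9.70 TPM and MAGEA12 103 ± 8.36 TPM. MAGEA3 and MAGEA6 are close copies, so the split between them is uncertain. PAGE1 had 259, 292 and 261 CPM and 1223 ± 20.8 TPM, in place 57 by TPM, while 25 of the 33 GAGE, PAGE, XAGE and SSX entries were absent. The other expressed entry, SSX2IP (23.3 ± 2.57 TPM), was taken in by its symbol and is not an SSX gene.

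A minority of the absent protein-coding genes lay in runs of 15 or more, and many of these runs held families that belong to other cells. Of 381 olfactory receptors 360 were absent and 3 passed 1 CPM, OR2B6 (3.45, 4.65 and 4.11 CPM), OR5B2 (2.68, 2.62 and 2.00 CPM) and OR2B2 (0.383, 2.03 and 0.881 CPM). Of 94 keratin-associated proteins, which build hair, 93 were absent, of 24 bitter taste receptors 21, of 39 beta-defensins 36 and of 17 type I interferons 17. The longest unbroken run of absent protein-coding genes on GRCh38 spanned chromosome 11 from 49952391 to 57191717 and held 54 genes, 50 of them olfactory receptors, with 3 counts in all. Next came 50 keratin and keratin-associated genes from KRT12 to KRT15 on chromosome 17 (40860943 to 41522529), with 6 counts, and 47 genes on chromosome 1 (247416156 to 248755739), 42 of them olfactory receptors. On chromosome 21 (30281309 to 31038476) 33 keratin-associated genes had 0 counts. The protocadherin genes PCDHA1 to PCDHB4 on chromosome 5 (140786136 to 141125623) formed a run of 19 with 7 counts. Protocadherin-alpha genes share their last exons, so reads there fall on several genes and are not counted. Other runs hold sequence that the genome carries more than once, where a read that matches several places is not counted either. A run of 15 genes on chromosome X (276322 to 2741309), from PLCXD1 to CD99, lies in the pseudoautosomal region and had 1 count, with 0 for SLC25A6, an ADP/ATP carrier. Runs from DEFB1 to USP17L3 on chromosome 8 (6870575 to 7977985), with 40 genes, and from LYZL6 to TBC1D3F on chromosome 17 (35934518 to 36439566), with 16, hold gene copies and had 0 and 1 counts. For these runs absence of reads from the tables does not show absence of transcripts.

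Most genes were even across the libraries. Over the 8661 protein-coding genes that averaged 10 CPM or more, the highest library exceeded the lowest by a median factor of 1.14, and the 99th percentile was 1.53. In 111 genes (1.28%) the factor passed 1.5, and in 5 it passed 2. HBB had 148, 163 and 0.294 CPM, present in 2 libraries and nearly missing from the other. HLA-C had 0.931, 14.5 and 36.4 CPM, different in each library. FDFT1 had 50.4, 4.29 and 59.1 CPM, low in the second. UBB, a polyubiquitin gene, had 81.1, 101 and 33.1 CPM, low in the third, and had 3735 counts against 33747 in the stranded columns. The calcium channel gene ORAI1 had 17.5, 8.29 and 11.4 CPM, highest in the first library. UQCRC2, a subunit of respiratory complex III, had 287, 274 and 144 CPM, low in the third. CARNS1 had 14.5, 24.8 and 28.1 CPM, low in the first, and UBE4A had 24.3, 12.9 and 22.3 CPM, low in the second. The library that stood apart was thus not the same one from gene to gene, and the part of handling or of separate cultures in these differences was not tested.

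**Figure D5:**
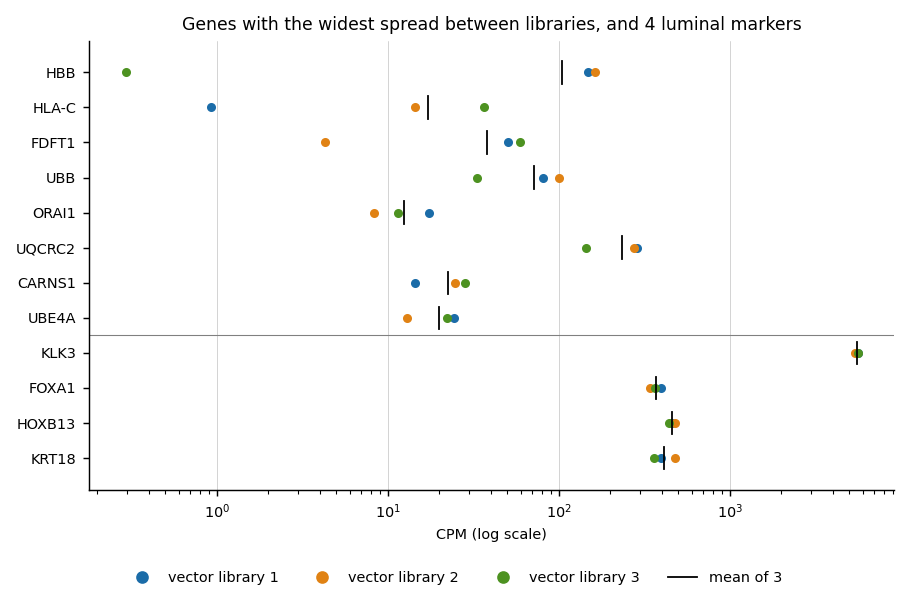
CPM (log axis) in each of the 3 vector libraries for the 8 genes with the widest spread among those at 10 CPM or more, and for KLK3, FOXA1, HOXB13 and KRT18 below them. HBB falls from 163 to 0.294 CPM between libraries, whereas KLK3 stays between 5426 and 5599 CPM.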

How the data were processed

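RNA-seq was read in the 3 vector libraries of C4-2 cells. The deposited tables hold read counts per gene, not normalized, in 1 unstranded and 2 stranded columns with 4 summary rows. Reads were processed with FastQC and STAR on GRCh38, per the submitters' processing notes. The sources used here name no versions, annotation release or filters. RNA was total RNA put through a kit for mRNA, per the labels' protocols. A read over 2 genes, or matching several places, counts to none in the deposited column used here.

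The 62696 gene rows of the unstranded column were scaled to CPM with TMM factors over the 3 libraries (edgeR 4.0.16, R 4.3.3). TPM used the union of exons in GENCODE 29, which holds 58269 of the rows and 99.74% of gene counts. Tables were made with Python 3.11.15, numpy 2.4.6 and pandas 2.3.3, figures with matplotlib 3.10.9, and the steps were tested on simulated data. Expressed means a mean of at least 1 CPM, and absent 0 to 2 counts over the 3 libraries. Since this is a description of 1 group, no test was run. The 16617644 to 18178467 gene counts per library set a limit of 0.0576 CPM over all 3 for a gene with 0 counts. PCR reads without molecular identifiers are not independent molecules, so this covers counting error only.

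The members and the 61 lists were chosen with earlier results of these data known. The text names the 12 protein-coding genes with the highest TPM, the 5 noncoding genes with the highest CPM, the 4 highest expressed members of a list by TPM and up to 6 absent ones, all cell type markers, all mismatch repair genes and all genes often methylated, and the 8 genes with the widest spread. Some genes of these lists are not reported here. Other genes named, with or without a remark beside them, were chosen after their values were seen. Sequences are from RefSeq (GRCh38.p14). A comparison of promoters between level classes was planned and is void, since only 77.2% of protein-coding genes had a window. Alternatives tried were plain CPM, DESeq2 size factors (DESeq2 1.42.0), TPM, thresholds of 0.5 and 2 CPM, 1 CPM in each library, 0 or 0 to 10 counts for absence, the summed stranded columns, nuclear protein-coding genes only, and leaving out each library. TPM by basic transcript length was added after seeing the data.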

Additional observations from a re-analysis of the deposited data

Results flagged for a closer look

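Data outside the main column showed a signal for some genes listed as absent. Of the 5135 absent nuclear protein-coding genes, 58 (1.13%) had at least 100 counts over the 3 libraries when the authors' 2 stranded columns were summed. GPS2, a subunit of a corepressor complex, had 0 counts in the unstranded column and 22358 in the stranded sum. It shares 52.5% of its exon bases with other genes, 44.7% with genes on its own strand. NELFCD, a subunit of the negative elongation factor, had 1 count against 10170 and shares 0% of its exon bases in GENCODE 29. For 4898 of the 5135 the stranded sum was also 0 to 2. Among the 11569 expressed protein-coding genes, 1219 (10.5%) had a stranded sum over 1.5 times the count used here. For 70.3% the sum was at most 5% above that count. Levels of the genes with a larger stranded sum may be too low. A read over 2 genes on opposite strands is counted to neither in the unstranded column and to each in the stranded sum. The overlap in GENCODE 29 does not account for NELFCD, and the cause there was not tested.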

How the results depend on the processing

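The share of gene counts in the 100 top genes was 25.6% over all gene rows and 20.9% over nuclear protein-coding genes only, which leaves out the mitochondrial genome. The counts of expressed and absent genes over all protein-coding genes, and of absent genes over all gene rows, stayed within 1.5 times its value under the alternatives run. Expressed protein-coding genes numbered 10845 at 2 CPM and 12246 at 0.5 CPM. Absent protein-coding genes numbered 4017 at 0 counts, 6631 at 0 to 10 counts and 4898 by the stranded sum. Leaving out each library in turn gave 11544 to 11575 expressed and 5540 to 5567 absent protein-coding genes, and moved the luminal markers' CPM by a factor of 0.933 to 1.053. Of the 61 lists, the number of expressed members moved by over 1.5 times in 6 at 0.5 CPM, in 4 at 2 CPM, in 1 at 1 CPM in each library, in 1 by the stranded sum, in 2 without replicate 2 and in 1 without replicate 3. Expressed leukocyte and red cell markers numbered 1, against 2 at 0.5 CPM, 0 at 1 CPM in each library, 4 by the stranded sum and 2 without replicate 2 or 3. Expressed UGT genes rose from 0 to 1 without replicate 2, and integrins fell from 15 to 9 at 2 CPM. TPM by basic transcript length moved 10 of the 12 luminal markers, by a factor of 0.524 to 2.05, so TPM ranks depend on the length taken. Depth limits levels under about 1 CPM, where libraries differed most. No paired analysis was possible because the result comes from no test and concerns 1 group. The comparison of promoter features by TPM class was not run.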
